A study of Mus musculus with 5 samples.

Results

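Binding of ZFP541, a germ-cell protein with zinc fingers, was described at 10 genes that regulate spermatogonia: the receptor genes Kit, Ret and Gfra1, the transcription factor genes Sohlh1, Sohlh2, Dmrt1, Sall4 and Etv5, and the RNA-binding protein genes Nanos2 and Lin28a. They were chosen by name from the 21779 protein-coding genes of the RefSeq table used here, and every peak overlapping a gene's body or the 10 kb on either side of it was taken. The peaks came from ChIP-seq, which sequences the DNA that an antibody pulls down from cross-linked chromatin. The cells were pachytene and diplotene spermatocytes from the testis of adult mice of the C57BL/6 strain, enriched by STA-PUT sedimentation. Of 5 samples, 2 were wild-type (WT) libraries made with a rabbit antibody raised against amino acids 1 to 300 of ZFP541, 1 was a Zfp541-/- library made with the same antibody, and 2 were wild-type inputs, for which no peak list was analysed here. How the Zfp541-/- allele was made, and how many animals stand behind a library, is not stated in the labels. Peak lists do not measure RNA, so the labelled cell type could not be checked against marker genes.

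Spermatogonia are the mitotic cells from which spermatocytes arise. GDNF from somatic cells acts on undifferentiated spermatogonia through the co-receptor GFRA1 and the tyrosine kinase RET, and ETV5 acts downstream of that signal; NANOS2, SALL4 and LIN28A are further factors of the undifferentiated state. The bHLH proteins SOHLH1 and SOHLH2 promote differentiation, which is marked by the receptor KIT, and DMRT1 holds spermatogonia in mitosis before meiosis begins. Spermatocytes of the stages assayed here have left this programme, and the peak lists say where ZFP541 was found on these genes, not whether they were transcribed.

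The replicate 1 list held 8236 peaks, the replicate 2 list 10371 and the knockout list 256, with 1 ChIP library behind each. For each peak the authors' caller gave a fold enrichment over its background, with medians of 4.29 and 4.03 for the wild-type lists and 3.33 for the knockout list; these values are the authors' and are used here to describe and rank peaks within a list. The lists carry no read depth, and a gene without a peak is not thereby shown to be unbound. At the Zfp541 gene the highest fold was 18.6 in replicate 1 and 22.2 in replicate 2, and the knockout list had no peak there. That absence is common to nearly all genes, since 0.34% of them had a knockout peak in the body or 10 kb around it.

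In each wild-type list, most of the regulators had no ZFP541 peak within 1 kb of an end, as was true of most protein-coding genes. The 10 windows held 16 wild-type peaks, 8 in each replicate, and no knockout peak. The lists began at different strengths, with a lowest −log10 p of 2.71 and 2.54 in the wild-type replicates and 4.47 in the knockout list. Of the 10 genes, 5 had a peak in at least 1 wild-type list (Kit, Sall4, Etv5, Nanos2 and Lin28a) and 5 had none in any list (Ret, Gfra1, Sohlh1, Sohlh2 and Dmrt1). The share of all genes with a peak in at least 1 list was not computed, and the shares by library are given below. Kit was the member with peaks of both replicates at its own start. By library, 4 of 10 members had a peak in the window in replicate 1 (33.8% of all genes did), 5 of 10 in replicate 2 (39.4%) and 0 of 10 in the knockout (0.34%). Within 1 kb of a gene end the same counts were 1 (23.7%), 3 (27.8%) and 0 (0.0459%). At Etv5 and Nanos2 a peak at the gene's own start was called in replicate 2 only. The peaks in the Sall4 and Lin28a windows, and the other peaks in the Nanos2 window, lay in or near a neighbouring gene. In the map of peaks along the 10 genes these neighbours are Atp9a beside Sall4, Mypop beside Nanos2 and Dhdds beside Lin28a.

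**Figure D1:**
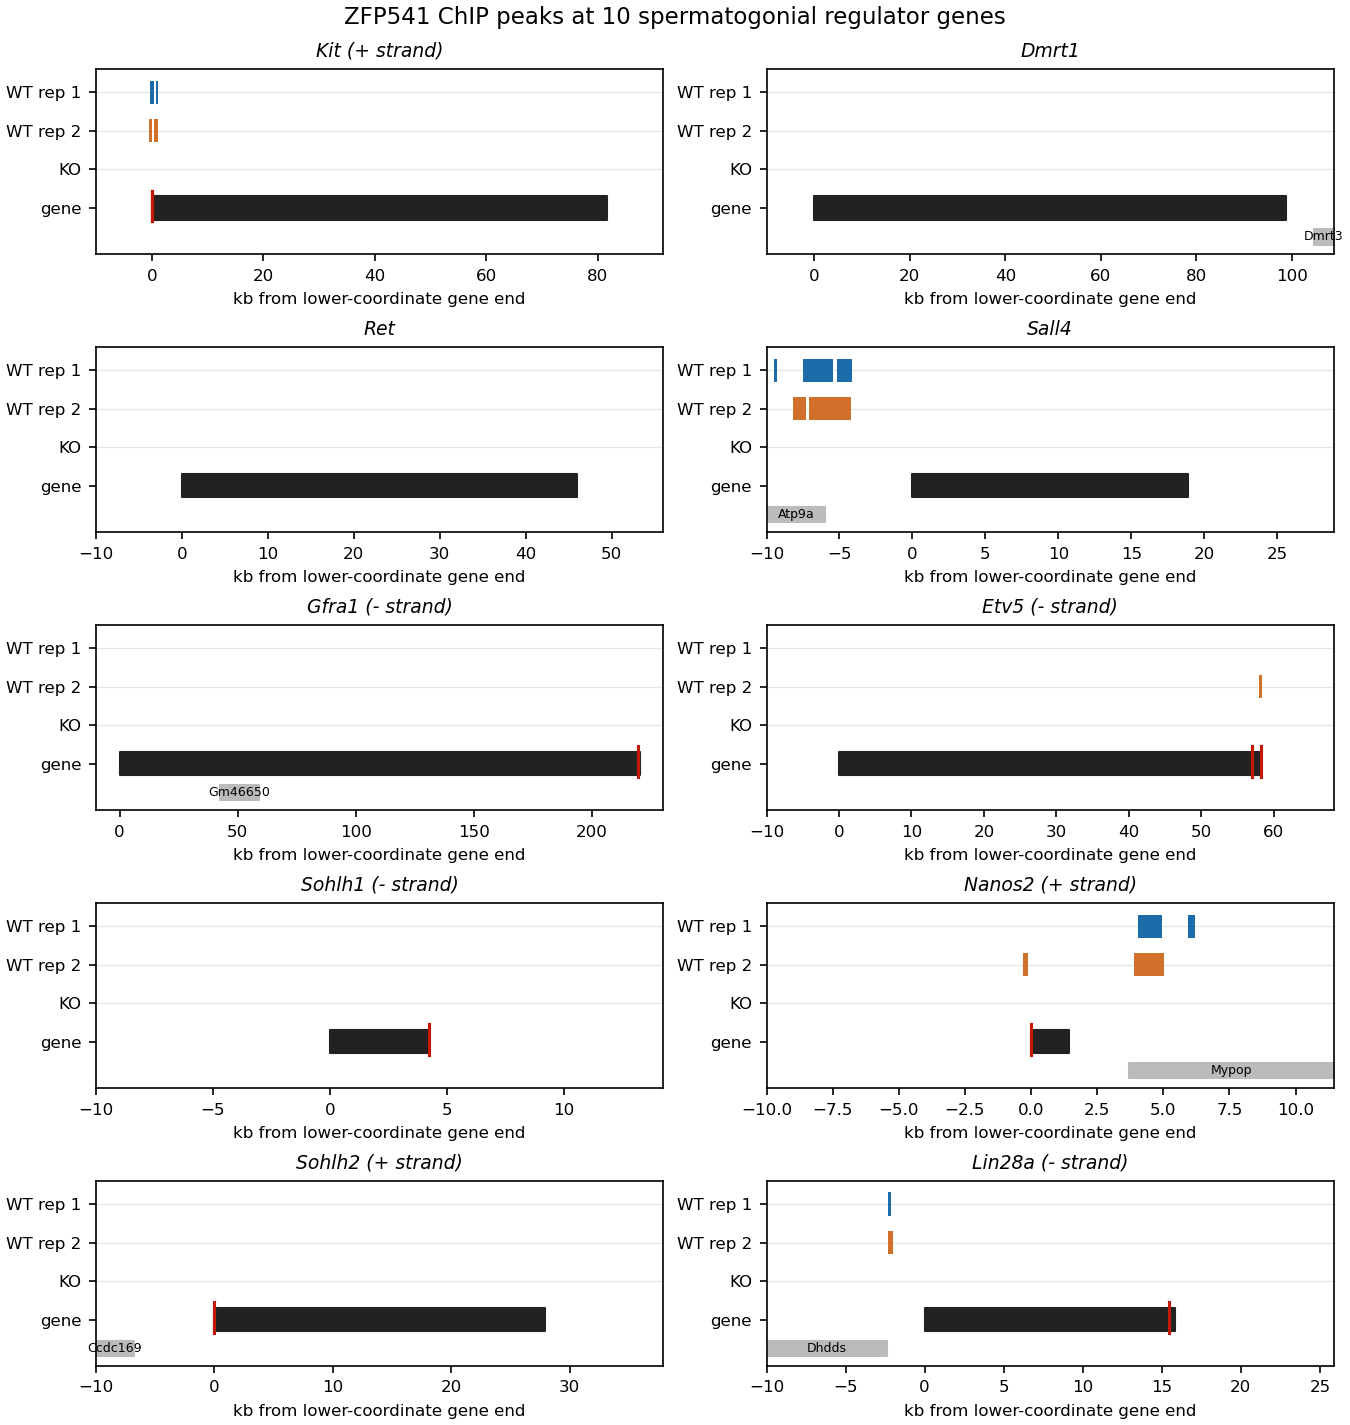
Peaks of the 3 ZFP541 ChIP libraries along each of the 10 genes; the x axis is the distance in kb from the lower-coordinate end of the gene, black bars are the gene, red ticks the transcription starts in the RefSeq promoter table, grey bars protein-coding neighbours, and coloured blocks peaks (drawn at a minimum width where very narrow). Kit carries peaks of both wild-type replicates at its start, 5 panels are empty, and the knockout row is empty in all 10.

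To count genes, overlapping peaks of the wild-type replicates were joined into shared regions and those touching a knockout peak were removed, which left 5325 regions. A shared region lay within 1 kb of either end of 1 of the 10 members, Kit, against 21.0% of all protein-coding genes. With the wider window of the gene body and 10 kb around it, 4 of 10 members had a shared region (Kit, Sall4, Nanos2 and Lin28a), against 29.3% of all genes. Gene length, whose part in this count was not tested, had a median of 37.0 kb over the members and 17.2 kb over all genes. The 4 members with a region were Kit at 81736 bp, Sall4 at 18870 bp, Lin28a at 15867 bp and Nanos2 at 1439 bp. Members without one ran from 4254 bp at Sohlh1 to 220366 bp at Gfra1. Over the promoter window, from 250 bases before to 50 after the transcription start, 1 of the 7 members with an entry in the promoter table had a region, again Kit, against 20.4% of 17492 genes. With 10 genes, a single gene moves each of these shares by 10 percentage points or more, so none of the 3 counts sets the members apart from the background.

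**Figure D2:**
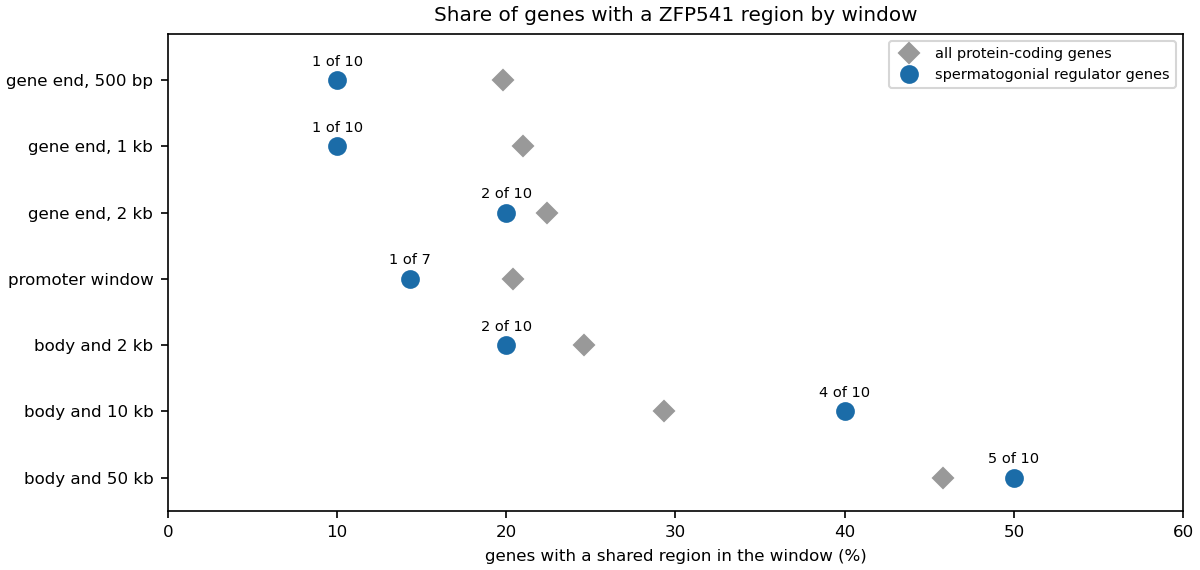
Percentage of genes with a shared ZFP541 region (x axis) for 7 definitions of the window (y axis); circles are the spermatogonial regulator genes with their counts, diamonds all protein-coding genes. The circles lie below the diamonds for windows at gene ends (1 of 10 at 1 kb against 21.0%) and above them for the body with 10 kb (4 of 10 against 29.3%).

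The members that the wider window added had their regions near an end of another gene. Of the 4 members with a region within 10 kb, 1 had it at its own end, and for the other 3 each region lay within 1 kb of an end of another protein-coding gene. Among all 6392 genes with a region in that window, 71.5% had a region at their own end, and 15.9% had none at their own end while every region in their window lay at another gene's. The 3 members in this second class are Sall4, Nanos2 and Lin28a. At Nanos2 this held for the edge of the region, as its peak summits lay 1184 and 1152 bp from the Mypop start. Which gene a region acts on was not tested, and 4 members are too few to compare with these shares.

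The sequences before the starts of 6 genes show what the peaks did and did not cover. Kit, Etv5 and Nanos2 are shown because a peak lay there, Mypop because peaks inside it fall in the Nanos2 window, and Gfra1 and Sohlh1 as starts without a peak. Each is the 250 bases before the start, written 5′ to 3′ on the gene's strand, taken from RefSeq's promoter table on GRCm38.p6 (mm10). Capitals mark matches on either strand to GGGCGG (the GC box), CACGTG (an E-box), TGACGTCA (the cyclic AMP element), CCAAT (the CCAAT box), CNGTTA (a MYB motif) and TATAAA (the TATA box).
Kit, chr5:75574737-75574986, plus strand: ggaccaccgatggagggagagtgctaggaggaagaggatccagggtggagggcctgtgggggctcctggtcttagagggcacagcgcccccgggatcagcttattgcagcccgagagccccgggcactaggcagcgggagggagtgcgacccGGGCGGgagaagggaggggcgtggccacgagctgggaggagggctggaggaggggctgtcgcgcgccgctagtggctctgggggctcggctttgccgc
Etv5, chr16:22439571-22439820, minus strand: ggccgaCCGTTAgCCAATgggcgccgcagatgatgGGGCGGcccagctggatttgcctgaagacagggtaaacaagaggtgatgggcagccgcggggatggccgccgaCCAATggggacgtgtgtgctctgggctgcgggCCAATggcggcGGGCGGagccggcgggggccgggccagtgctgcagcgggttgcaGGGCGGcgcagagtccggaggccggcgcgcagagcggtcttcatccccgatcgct
Nanos2, chr7:18987274-18987523, plus strand: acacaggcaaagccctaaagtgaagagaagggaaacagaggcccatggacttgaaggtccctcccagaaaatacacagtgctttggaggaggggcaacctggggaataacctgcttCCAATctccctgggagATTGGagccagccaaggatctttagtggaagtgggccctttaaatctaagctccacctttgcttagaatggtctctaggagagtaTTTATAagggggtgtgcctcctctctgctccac
Mypop, chr7:18990995-18991244, plus strand: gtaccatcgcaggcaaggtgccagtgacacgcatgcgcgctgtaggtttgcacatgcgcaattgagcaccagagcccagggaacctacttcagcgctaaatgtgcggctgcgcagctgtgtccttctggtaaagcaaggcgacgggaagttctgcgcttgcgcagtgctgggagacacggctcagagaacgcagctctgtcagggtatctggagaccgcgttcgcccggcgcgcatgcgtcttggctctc
Gfra1, chr19:58455399-58455648, minus strand: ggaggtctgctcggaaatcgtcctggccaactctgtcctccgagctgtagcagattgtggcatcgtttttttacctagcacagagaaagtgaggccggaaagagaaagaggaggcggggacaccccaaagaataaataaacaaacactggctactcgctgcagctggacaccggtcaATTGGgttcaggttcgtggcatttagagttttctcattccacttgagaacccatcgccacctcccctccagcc
Sohlh1, chr2:25847249-25847498, minus strand: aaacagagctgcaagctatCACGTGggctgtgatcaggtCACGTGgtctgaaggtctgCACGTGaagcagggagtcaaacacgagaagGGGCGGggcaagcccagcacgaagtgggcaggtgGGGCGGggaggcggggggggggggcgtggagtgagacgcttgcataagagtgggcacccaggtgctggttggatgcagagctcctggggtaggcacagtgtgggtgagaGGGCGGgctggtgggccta
The Kit stretch holds 17 CpG dinucleotides and the Etv5 stretch 27, against 0 in that of Nanos2. The Mypop stretch holds 21 CpGs, that of Gfra1 10 and that of Sohlh1 11.

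Kit encodes the receptor tyrosine kinase for stem cell factor and lies on chromosome 5 from 75574987 to 75656722. Replicate 1 had a peak across the start, at chr5:75574736-75575301 (566 bp), with a fold of 4.64, a −log10 p of 7.20 and a −log10 q of 3.92, and its summit lay 130 bp inside the gene. A further replicate 1 peak at chr5:75575684-75576023 (340 bp) had a fold of 4.19 and a −log10 q of 3.24, with its summit 903 bp inside the gene. Both lay near the middle of their list, at percentile ranks of 57.1 and 47.3 by fold.

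Replicate 2 also called 2 Kit peaks, but they were placed differently. The peak at chr5:75574556-75574979 (424 bp) ended before the start and had its summit 304 bp outside the gene, with a fold of 4.03 and a −log10 q of 2.86. The peak at chr5:75575329-75576021 (693 bp) had its summit 520 bp inside the gene, with a fold of 5.37, a −log10 q of 6.08 and a percentile rank of 69.5. Between the replicates the outer peaks shared 244 bp and the inner peaks 338 bp, and their summits lay 434 and 383 bp apart.

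The Kit overlap was therefore partial in each pair. The shared 244 bp made up 43.1% of the replicate 1 peak and 57.5% of the replicate 2 peak, and the shared 338 bp made up 99.4% and 48.8%. When each peak had to cover 50% of the other, neither pair counted, and no member then had a region at its own end, against 15.3% of all genes. Kit also dropped out when peaks needed a −log10 q of at least 5, a threshold that the inner replicate 2 peak passed and the other 3 did not; 11.8% of all genes kept a region at an end there. In the promoter window, which starts at the bases printed above, the replicate 1 peak covered all 300 bases and the replicate 2 peak 243. The nearest knockout peak was 8346260 bp from Kit.

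**Figure D3:**
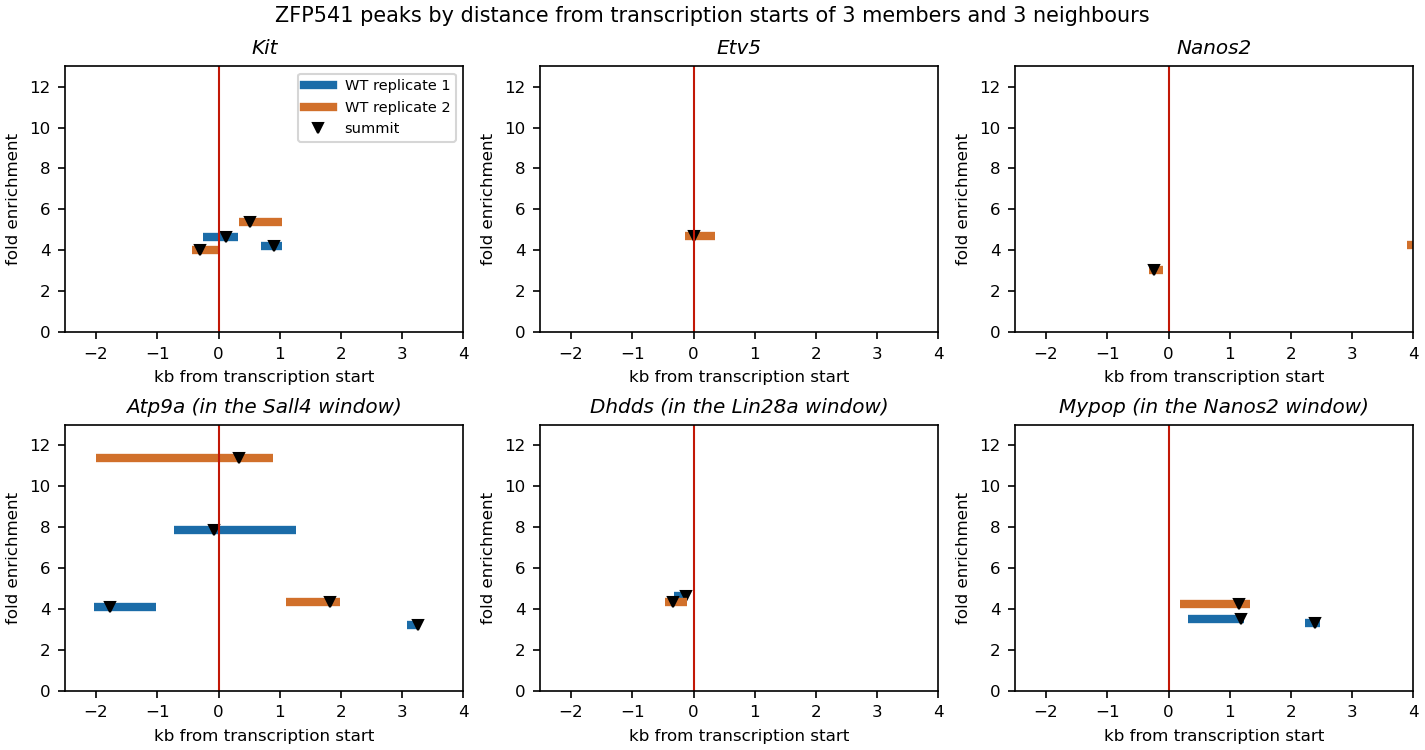
Wild-type peaks at 6 transcription starts; the x axis is the distance in kb from the outermost start in the promoter table, positive into the gene, the y axis the fold enrichment, bars span the peak and triangles mark its summit. The top row shows Kit, Etv5 and Nanos2, and the bottom row the neighbours whose peaks fell into the windows of Sall4, Lin28a and Nanos2; the Atp9a peaks reach folds of 7.86 and 11.4, above every peak at a member's own start.

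Ret and Gfra1 encode the receptor pair for GDNF, and neither had a peak in its window in any library. Ret (chr6:118151748-118197744) lay 138181 bp from the nearest replicate 1 peak and 85898 bp from the nearest replicate 2 peak, with folds there of 3.21 and 2.69. Its nearest shared region was 138710 bp away, beside Rasgef1a, with folds of 7.50 and 9.73. Gfra1 (chr19:58235581-58455946) is the longest member at 220366 bp, and it had the most distant wild-type peaks of the 10 genes, 619194 bp away in replicate 1 and 618985 bp in replicate 2. Those peaks formed a shared region nearest to Shtn1, with folds of 3.71 and 4.36. Gfra1 also had the nearest knockout peak of all members, 118022 bp away with a fold of 4.10; for the others that distance ran from 871338 bp at Sall4 to 69505289 bp at Lin28a.

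The bHLH genes Sohlh1 and Sohlh2 were also without peaks in their windows. Sohlh1 (chr2:25842995-25847248) had wild-type peaks just outside the 10 kb limit, 14597 bp away in replicate 1 (fold 3.08) and 16176 bp in replicate 2 (fold 6.71). The shared region there, with folds of 7.86 and 6.71, was nearest to Kcnt1, and with a window of 50 kb Sohlh1 joined the members with a region, making 5 of 10 against 45.8% of all genes. Sohlh2 (chr3:55182044-55209957) had its nearest peak 430223 bp away in replicate 1 and 69548 bp away in replicate 2. Its neighbour Ccdc169, which reaches into the window, had no shared region at an end.

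Dmrt1, a DM-domain transcription factor gene of germ and Sertoli cells, spans chr19:25505618-25604328. No peak lay in its window of 119 kb. The nearest was 267770 bp away in replicate 1 (fold 2.78) and 287149 bp away in replicate 2 (fold 2.69), and the nearest shared region was 505483 bp away, beside Dock8. Its relative Dmrt3, whose body begins 5918 bp from that of Dmrt1, had no shared region at an end.

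Sall4, a zinc finger gene of pluripotent and undifferentiated germ cells, had the strongest peaks in any of the windows, but they lay at the start of Atp9a, a P4-type flippase gene. Sall4 spans chr2:168748332-168767201, and no peak overlapped its body. Replicate 1 had a peak at chr2:168740864-168742862 (1999 bp) with a fold of 7.86, a −log10 q of 15.6 and a percentile rank of 85.2. Replicate 2 had a peak at chr2:168741245-168744130 (2886 bp) with a fold of 11.4, a −log10 q of 25.0 and a percentile rank of 94.5. These were the members' windows' only peaks in the upper quartile of their lists, which began at 6.30 in replicate 1 and 6.04 in replicate 2.

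The summits of this pair were 81 bp and 5 bp before the nearest Atp9a start, and 6115 bp and 6527 bp from the nearest end of Sall4. Around them, replicate 1 had a peak of fold 4.09 at chr2:168743151-168744169 and replicate 2 one of fold 4.36 at chr2:168740147-168741038. The 4 peaks joined into a shared region at chr2:168740147-168744169 of 4023 bp. Another replicate 1 peak, at chr2:168738876-168739062 with a fold of 3.21, had no partner in replicate 2 and a −log10 q of 1.01, which is a q-value above 0.05. The large pair passed a −log10 q of 10, so Sall4 was the 1 member that kept a region within 10 kb at that threshold, against 9.99% of all genes.

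Etv5, an ETS-family gene that responds to GDNF, had a peak in replicate 2 only. The gene spans chr16:22381313-22439570 on the minus strand. The peak at chr16:22439225-22439708 (484 bp) had a fold of 4.70, a −log10 p of 7.59, a −log10 q of 4.41 and a percentile rank of 62.8, and its summit lay 12 bp inside the gene from the outer start. It covered 138 of the 250 bases printed for Etv5. The nearest replicate 1 peak was 216562 bp away. Of the 290 replicate 2 peaks with the same fold and −log10 p as the Etv5 peak, 191 (65.9%) overlapped a replicate 1 peak. The replicate 2 list is the longer of the 2 lists, and its part in this difference was not tested.

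Nanos2, which encodes an RNA-binding protein of spermatogonial stem cells, is the shortest member at 1439 bp (chr7:18987524-18988962). Replicate 2 had a peak before its start at chr7:18987211-18987426 (216 bp), with a fold of 3.02, a −log10 q of 0.858 and its summit 235 bp from the start. This was the lowest fold among the 16 peaks, and its q-value was above 0.05, as for 22.6% of replicate 2 peaks. Of the 967 replicate 2 peaks with the same fold and −log10 p, 99 (10.2%) overlapped a replicate 1 peak, and the Nanos2 peak did not.

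The other peaks of the Nanos2 window lay inside Mypop, a gene for a Myb-related transcription factor that begins 2278 bp beyond the end of Nanos2. Replicate 1 had chr7:18991566-18992479 (914 bp) with a fold of 3.49 and replicate 2 chr7:18991425-18992568 (1144 bp) with a fold of 4.24. Their summits were 32 bp apart, the closest of the overlapping pairs, and lay 1184 bp and 1152 bp into Mypop from its start. Neither peak reached the Mypop bases printed above. A further replicate 1 peak at chr7:18993470-18993722 had a fold of 3.31 and no partner.

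Lin28a, which encodes an inhibitor of let-7 miRNA processing, spans chr4:134003330-134019196 on the minus strand. Replicate 1 had a peak at chr4:134000990-134001208 (219 bp) with a fold of 4.64 and a −log10 q of 3.92, and replicate 2 one at chr4:134000994-134001352 (359 bp) with a fold of 4.36 and a −log10 q of 3.62. They shared 215 bp. These peaks were 17804 bp and 17592 bp, by their summits, from the start of Lin28a, beyond the other end of the gene. They were 130 bp and 342 bp before the start of Dhdds, a gene for a subunit of the enzyme that makes dolichol precursors. A window of 2 kb at gene ends took in this region, so that Lin28a was then counted with Kit, making 2 of 10 against 22.4% of all genes.

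**Figure D4:**
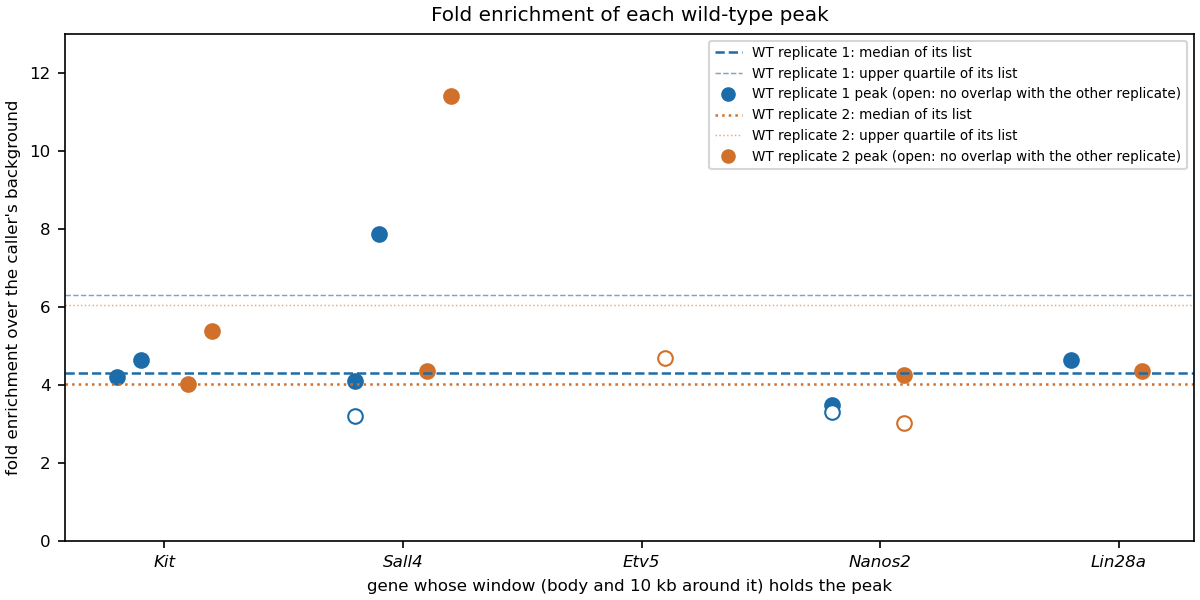
Fold enrichment (y axis) of each of the 16 wild-type peaks by the gene whose window holds it (x axis); filled points overlap a peak of the other replicate, open points do not, and lines give the median and upper quartile of each whole list. The pair of the Sall4 window, at 7.86 and 11.4, lies above the quartile lines, and the other 14 peaks lie between 3.02 and 5.37.

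The promoters of the members differed in CpG content, along which ZFP541 regions were unevenly spread over the genome. CpG observed over expected, the number of CpGs relative to that given by the C and G content, had a median of 0.890 in the 4123 promoter windows with a shared region and 0.421 in the 17140 without. In 4 equal groups of promoters by this ratio, from the lowest to the highest, 0.282%, 4.18%, 23.6% and 49.5% had a region. Promoter entries existed for 7 members, and Dmrt1, Sall4 and Ret had none.

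Within the 7, the outer start of Etv5 had the highest ratio at 0.938 (37 CpGs in 300 bases) and its inner start 0.727. The 2 entries for Kit had 0.621 and 0.652, with 20 and 21 CpGs. Gfra1 (0.549), Sohlh2 (0.545), Sohlh1 (0.525) and Lin28a (0.351) fell in the group where 4.18% of promoters have a region, and Nanos2 had no CpG in its window. Among the neighbours, the start of Atp9a nearest to the replicate 2 summit had a ratio of 1.13 with 65 CpGs and the one nearest to the larger replicate 1 peak's summit 0.696 with 21 CpGs. The start of Dhdds had 0.980 with 30 CpGs and that of Mypop 0.779 with 22. The Kit promoter thus stood below the median of promoters with a region. The weak Nanos2 peak lay in the group where 0.282% of promoters had a shared region. That share counts regions of both replicates, and the Nanos2 peak was called in replicate 2 only.

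**Figure D5:**
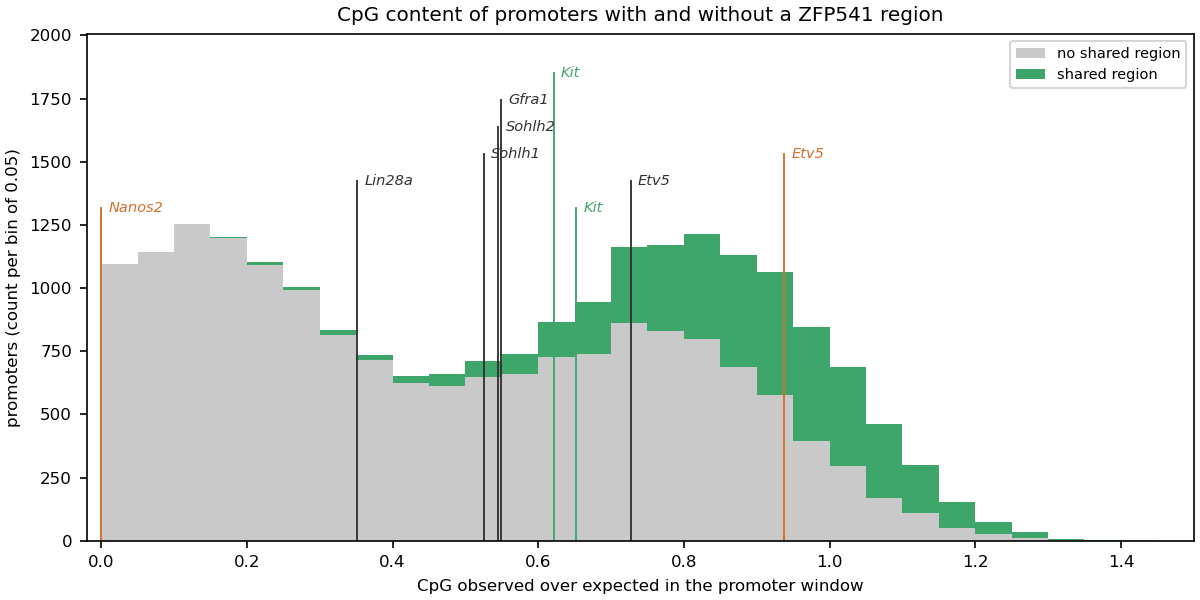
Number of promoter windows of protein-coding genes (y axis) by CpG observed over expected (x axis, bins of 0.05), stacked by whether a shared ZFP541 region overlapped; vertical lines mark the members' promoters (green, shared region; orange, replicate 2 peak only; black, no peak) and their heights carry no meaning. Kit at 0.621 and 0.652 lies near the median of all promoters, 0.567, the outer Etv5 start at 0.938 on the CpG-rich side, and Nanos2 at 0.

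Short motifs were searched on both strands of the 300-base windows, as a description and not as binding sites. The GC box GGGCGG was in 46.2% of all 21263 windows, in 78.5% of those with a shared region and in 38.4% of those without. The outer Etv5 window held 3 matches and the Sohlh1 window 3, while Kit, Sohlh2 and Lin28a held 1 each and Gfra1 and Nanos2 none. In Kit the match began 98 bases before the start, inside the replicate 1 and replicate 2 peaks.

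The E-box CACGTG, a class of site bound by bHLH proteins, was in 7.84% of windows. Sohlh1 was the only one of the 7 members with it and had 3 matches, which began 231, 211 and 192 bases before the start; they are the first capitals in the printed sequence. The wider pattern CANNTG, of which CACGTG is 1 case, was in 69.0% of windows, with 5 matches in Sohlh1, 3 in Gfra1, 2 in the outer Etv5 window and 1 each in Kit and Sohlh2. CCAAT, in 38.2% of windows, had 3 matches in the outer Etv5 window, 2 in Nanos2 and 1 in Gfra1. TATAAA, in 12.6%, was matched in Nanos2 alone among the members, 33 bases before the start on the opposite strand. CNGTTA (21.0% of windows) had matches in both Etv5 windows, and TGACGTCA (2.23%) in none of the members.

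Genes that act with the members were described by 3 lists, some of whose genes were known from earlier results of these data to be bound. For that reason the shares of all 3 lists are descriptions and cannot be read as enrichment over all genes. Of 20 genes of GDNF and KIT signalling, 12 (60%) had a shared region within 1 kb of an end, against the 21.0% of all genes given above. They included the adaptor genes Grb2 (folds of 12.1 and 14.1 in replicates 1 and 2) and Gab2 (10.4 and 10.1), the ligand genes Artn (11.4 and 12.8) and Nrtn (8.02 and 9.66), the GDNF-family receptor gene Gfra4 (9.28 and 11.4) and the kinase subunit gene Pik3ca (7.09 and 7.85). The ligand genes Gdnf and Kitl had no shared region at an end. With the body and 10 kb around it the count was again 12 of 20, against 29.3% of all genes.

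The shares of the remaining lists are likewise descriptions only. Of 22 further genes of stem and progenitor spermatogonia, 8 (36.4%) had a shared region at an end, against 21.0% of all genes, and 11 (50%) had one in the body or 10 kb around it, against 29.3%. The strongest were Lin28b, the paralog of Lin28a, with folds of 17.9 and 19.3, and Egr4, a zinc finger gene, with 12.6 and 15.1. Pou3f1, a POU-domain gene that responds to GDNF, had 6.07 and 7.72, and Id4, Taf4b and Dazl had 6.78 and 7.05, 5.45 and 7.05, and 6.79 and 4.12. Of 18 genes of differentiating spermatogonia and relatives of the members, 5 (27.8%) had one at an end, near the 21.0% of all genes, and 11 (61.1%) had one in the wider window, against 29.3%. The 5 were the E-protein genes Tcf12 (12.9 and 13.8) and Tcf3 (7.73 and 7.42), Nanos1 (9.21 and 9.68), Sall3 (5.45 and 14.4) and the ETS gene Etv4 (3.57 and 3.32). Lin28b, Nanos1, Sall3, Etv4 and Gfra4 are paralogs of members that had no shared region at an end. Other paralogs in the lists had none there either: Nanos3, Sall1, Sall2, Etv1, Dmrt2, Dmrt3, Gfra2 and Gfra3. No knockout peak lay within 1 kb of an end of any gene in the 3 lists, but only 0.0459% of all genes had one there. The genotypes were not tested against each other, since the knockout has 1 library.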

How the data were processed

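Named in the submitters' processing notes are MACS2 2.2.6, Bowtie2 2.3.5, cutadapt 2.6, deepTools 3.5.0, SAMtools 1.10 and Picard, with mm10 as build; no source used here gives their settings, the control of each call or the threshold for a peak. Each deposited list holds a score, a fold enrichment (a ratio), −log10 p, −log10 q and the summit's offset per peak. The authors gave 1 peak list per ChIP library, and whether an input served as control is not stated. Of the 3 lists, 19.2%, 22.6% and 11.3% of peaks (replicate 1, replicate 2, knockout) had a q-value above 0.05.

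Gene spans were read from RefSeq's gene table on GRCm38.p6, without 340 entries that end before 3 Mb on chromosomes other than Y, and starts and sequences from its promoter table. Overlap meant at least 1 bp. Members were named by the given list. In the pathway lists, at most 6 genes per list were named by mean percentile rank of fold. Those named as without a region (Gdnf, Kitl and the paralogs) were chosen after their values were seen. The members and lists were chosen with earlier results of these data known. Alternatives covered peak thresholds, reciprocal overlap, knockout peaks kept, each replicate alone and other windows. Nothing says that the replicates came from separate animals. The overlap code was tested on simulated data. Python 3.11.15, numpy 2.4.6, pandas 2.3.3 and matplotlib 3.10.9 were used.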

Additional observations from a re-analysis of the deposited data

How the results depend on the processing

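Of 26 recomputed counts of members, 14 stayed within 1.5 times the value reported and 12 did not. The share of all genes under the same setting follows each count in brackets. At gene ends the count of 1 (21.0%) became 0 at a −log10 q of at least 5 (11.8%), at 10 (6.78%) and under reciprocal overlap (15.3%), and 2 with a 2 kb window (22.4%). Without 1 replicate it ranged from 1 (without replicate 2, 23.7%) to 3 (without replicate 1, when Etv5 and Nanos2 joined Kit, 27.8%). Over promoter windows the count of 1 of 7 (20.4%) became 0 under the same 3 settings (11.7%, 6.67% and 14.7%) and ranged from 1 without replicate 2 (20.6%) to 3 without replicate 1 (24.5%). Within 10 kb the count of 4 (29.3%) became 1 at the stricter q-values (17.3% and 9.99%) and 2 with a 2 kb window (24.6%). Under reciprocal overlap this count was 3 (22%), with Kit left out, which is within 1.5 times the value reported. Without 1 replicate it ranged from 4 (without replicate 2, 33.8%) to 5 (without replicate 1, 39.3%). Keeping regions with a knockout peak left the counts at 1 (21.0%), 1 of 7 (20.4%) and 4 (29.4%). That outcome was fixed beforehand, since no member's window held a knockout peak, and it is among the 14 that stayed. Requiring the lowest −log10 p of the knockout list, 4.47, left them at 1 (18.4%), 1 of 7 (18.1%) and 4 (26.0%). The peak nearest the start also stood in for the strongest peak (for Sall4, which has no start in the promoter table, the peak nearest a gene end). Of 9 folds, 6 kept their value. For Etv5 in replicate 2 and Lin28a in both replicates the window held 1 peak, so these could not change. The folds that moved were Kit in replicate 2 (4.03 for 5.37), Sall4 in replicate 1 (4.09 for 7.86) and Nanos2 in replicate 2 (3.02 for 4.24). No paired analysis was possible because the peak lists give no test between groups and the knockout has 1 library. Read depth is unknown and limits what a missing peak can show.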

Other observations

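The fold and −log10 p of the wild-type peaks took few values. The 8236 peaks of replicate 1 had 975 distinct pairs of fold and −log10 p, and 93.6% of them shared their pair with another peak; in replicate 2 there were 1025 pairs and the share was 94.3%, while 16.8% of knockout peaks shared theirs. The outer Kit peak and the Lin28a peak of replicate 1 had the same pair, with 275 peaks in all, and 77.8% of these overlapped a replicate 2 peak. The Lin28a peak and the smaller Sall4 peak of replicate 2 shared theirs with 349 peaks in all, of which 53.0% overlapped a replicate 1 peak. The outer Kit peak of replicate 2 had a pair held by 525 peaks, of which 40.0% had a partner, and the inner one a pair held by 179, of which 81.0% did.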
